A study of Homo sapiens and Mus musculus with 4 samples.

Results

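Oxygen sensing by the hypoxia-inducible factors was examined in the ATF4 binding maps of a study of adult blood stem cells that lose ATF4, in which HIF1A is the factor linked to that loss. The genes were chosen by their role in the pathway and not by a measured value, though with earlier results of these data known. They are 8 of the 20037 protein-coding genes placed here, namely HIF1A, EPAS1, VHL, EGLN1, EGLN2, EGLN3, CITED2 and HIF1AN. The binding maps came from chromatin immunoprecipitation and sequencing (ChIP-seq), which finds the stretches of DNA that a protein occupies. The libraries were an ATF4 precipitate of KG1a (an established human line of acute myeloid leukaemia, kept here in 20% fetal bovine serum), its input chromatin prepared without antibody, an ATF4 precipitate of bone marrow cells from C57BL/6 mice, and the input of that marrow. Each of these 4 groups held 1 library, so there is no replicate check and no p-value is given. Both sources carried no stated change of the ATF4 gene and no stated treatment, and no library from cells lacking ATF4 was analysed here. KG1a is 1 established line, and marrow is a mixture in which stem cells are rare. How many animals gave the marrow is not stated in the labels.

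HIF1A and EPAS1 encode the oxygen-labile subunits of the hypoxia-inducible factors, which pair with the stable subunit ARNT to switch on genes for glycolysis, blood vessel growth and red cell production. While oxygen is present, the prolyl hydroxylases encoded by EGLN1, EGLN2 and EGLN3 mark these subunits, and VHL, the recognition part of a ubiquitin ligase, binds the mark and sends them to degradation. HIF1AN hydroxylates an asparagine that the co-activators p300 and CBP need free, and CITED2 competes with the subunits for the same co-activators. Several of these genes, EGLN3 and CITED2 among them, are themselves switched on by the factors they restrain. In bone marrow the pathway is known for its part in keeping blood stem cells quiescent.

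The KG1a list held 873 peaks and the mouse list 83088. In KG1a no peak lay in the span of any of the 8 genes or within 10 kb of it, against 3.15% of all protein-coding genes (632 of 20037). In mouse marrow 3 peaks lay in the regions of both orthologues whose position was at hand, 2 at Hif1a and 1 beside Epas1. Windows of the same width, tiled without regard to genes, held a peak in 67.2% (Hif1a) and 81.8% (Epas1) of cases. The mouse list was 95.2 times as long as the KG1a list, and the depth of the libraries is unknown, so a peak in mouse and none in KG1a cannot be read as a difference in binding.

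ATF4 is known to bind as a dimer with C/EBP factors at a composite element with the letters TGATGNAA. RefSeq promoter windows of GRCh38.p14, from 250 bases before to 50 after an annotated start, were matched for 7 of the 8 members, which had 11 windows between them. The sequences of HIF1A (chr14:61695263-61695562, plus strand), EPAS1 (chr2:46297157-46297456, plus strand) and EGLN3 (chr14:33951025-33951324, minus strand) are shown as the gene in question, its closest relative and the member with the nearest KG1a peak. Capitals mark NCGTG, on either strand, which contains the core of the hypoxia response element.
HIF1A: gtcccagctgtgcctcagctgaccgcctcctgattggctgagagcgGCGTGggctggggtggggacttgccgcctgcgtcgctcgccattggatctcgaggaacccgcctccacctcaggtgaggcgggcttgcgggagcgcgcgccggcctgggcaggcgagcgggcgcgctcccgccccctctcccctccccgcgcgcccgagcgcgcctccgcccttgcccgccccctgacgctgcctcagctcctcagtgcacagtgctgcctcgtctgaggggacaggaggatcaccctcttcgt
EPAS1: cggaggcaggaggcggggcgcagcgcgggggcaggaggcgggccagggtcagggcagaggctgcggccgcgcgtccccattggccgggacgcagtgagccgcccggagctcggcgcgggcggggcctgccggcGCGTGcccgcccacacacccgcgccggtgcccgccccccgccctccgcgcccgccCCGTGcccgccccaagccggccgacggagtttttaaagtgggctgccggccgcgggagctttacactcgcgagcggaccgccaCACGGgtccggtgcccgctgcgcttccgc
EGLN3: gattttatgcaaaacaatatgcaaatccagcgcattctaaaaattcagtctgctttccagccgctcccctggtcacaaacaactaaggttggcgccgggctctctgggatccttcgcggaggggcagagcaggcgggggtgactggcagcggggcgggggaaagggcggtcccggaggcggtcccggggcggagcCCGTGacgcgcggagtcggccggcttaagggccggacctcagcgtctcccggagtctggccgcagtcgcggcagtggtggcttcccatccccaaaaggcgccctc

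CHAC1, a stress-induced gene for a glutathione-degrading enzyme, is shown for contrast. It was chosen after its values were seen, since a KG1a peak overlaps its window (chr15:40953221-40953520, plus strand) and the window holds the composite element, marked in capitals as it reads on the opposite strand.
CHAC1: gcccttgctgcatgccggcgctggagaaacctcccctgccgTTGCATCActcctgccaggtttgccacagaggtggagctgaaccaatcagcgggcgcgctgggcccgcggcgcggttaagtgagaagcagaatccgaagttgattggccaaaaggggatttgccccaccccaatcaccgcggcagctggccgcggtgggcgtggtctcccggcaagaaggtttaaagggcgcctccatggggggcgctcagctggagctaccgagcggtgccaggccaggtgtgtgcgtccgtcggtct

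Among the members, 0 of 11 promoter windows held TGATGNAA on either strand. The share was 14.1% among the promoters that a KG1a peak overlaps (10 of 71) and 3.62% among all promoters of the table (1270 of 35116). For protein-coding genes alone these shares were 12.3% (7 of 57) and 2.69%. The cAMP response element, searched as TGACGTNA on either strand, was also found in 0 of the 11 windows. It was found in 1.41% of the promoters with a peak (1 of 71) and 3.01% of all promoters. For protein-coding genes alone the shares were 1.75% (1 of 57) and 3.54%. No promoter window of a member was overlapped by a peak, as was the case for all but 0.202% of the 35116 windows. A missing match says only that these letters are not in these windows, which reach no further than 250 bases before a start.

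The letters NCGTG were found in 9 of the 11 windows, in at least 1 window of each of the 7 genes. They were found in 80.3% of the promoters with a peak (57 of 71) and in 66.9% of all promoters. For protein-coding genes alone, which all members are, these shares were 87.7% (50 of 57) and 73.3%. A match stood in at least 1 window of 12419 of the 15843 protein-coding genes with a promoter window. So short a pattern is common. The member windows ran from 31.7 to 80.0% G and C, where the median of all windows was 58.7%. All lay above that median except the HIF1AN window at 58.0% and the second HIF1A window at 31.7%. Shares among windows of like G and C content were not computed. Restricted to ACGTG or GCGTG, the cores that hypoxia-inducible factors are known to prefer, matches were found in 7 of 11 windows. The shares were 66.2% of the promoters with a peak and 48.4% of all promoters, and those for protein-coding genes alone were not computed. Counted by gene, 5 of the 7 had such a match, against 14318 of all 27305 genes with a promoter window. Windows of CITED2 overlap each other, so the windows are not separate units. HIF1A had 1 such match, GCGTG, beginning 204 bases before the start. EGLN1 had ACGTG beginning 13 bases before its start. EGLN2 had ACGTG 48 bases before the first of its starts, and in CITED2 ACGTG began 152 bases before the start farthest upstream. Both of these lie in CACGTG, which reads the same on either strand, so the opposite strand matches there as well. EGLN3 and HIF1AN had CCGTG only.

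Of both factor genes, HIF1A was the farther from a KG1a peak. HIF1A (GRCh38, chr14:61695513-61748258) lay 2.02 Mb from its nearest peak, and 71.7% of the protein-coding genes with a peak on their chromosome had a nearer one. That peak, chr14:59674376-59674685, was 310 bp wide, the narrowest width in the list, and stood in place 857 of 873 in the deposited order. The list holds no score, so a place in it cannot be read as a rank of strength. The peak lies inside RTN1, which encodes a membrane protein of the endoplasmic reticulum, on the upstream side of HIF1A. On the other side the next peak began at base 66381316, so that HIF1A sat in a stretch of 6.71 Mb with no listed peak. Of the 17801 genes that lie between peaks, 39.0% were in a longer one, and the median was 4.73 Mb.

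EPAS1 (chr2:46297407-46386697), whose product shares the partner and the regulators of HIF1A, lay 1.13 Mb from its nearest peak, and 55.3% of genes had a nearer one. The peak-free stretch around EPAS1 was 4.23 Mb long.

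The hydroxylase genes spanned the whole range of the members. EGLN3 (chr14:33924227-33951074), a hypoxia-induced prolyl hydroxylase gene, was the nearest of the 8, at 156 kb, and 13.3% of genes had a nearer peak. The peak, chr14:34106700-34107061, lies upstream of the EGLN3 start, was 362 bp wide and stood in place 450. It is outside protein-coding genes, and EGLN3 is the protein-coding gene nearest to it, which was not the case for the nearest peak of any other member. HIF1AN (chr10:100535943-100559998) followed at 319 kb, with a peak inside CHUK, a kinase gene of the NF-kappa-B pathway, at chr10:100217025-100217385.

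EGLN1 (chr1:231363756-231422287), which encodes the main prolyl hydroxylase of most tissues, lay 668 kb from a peak at chr1:232090470-232090826. That peak is upstream of EGLN1 and 49.2 kb outside DISC1, a gene of neuronal development. EGLN2 (chr19:40799191-40808434) was the most distant member, at 2.70 Mb from a peak inside ETHE1, a mitochondrial sulfur dioxygenase gene (chr19:43511620-43511948). Of all genes with a peak on their chromosome, 78.8% had a nearer one, and the stretch without a peak around EGLN2 was 7.41 Mb, the longest among the members.

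**Figure D1:**
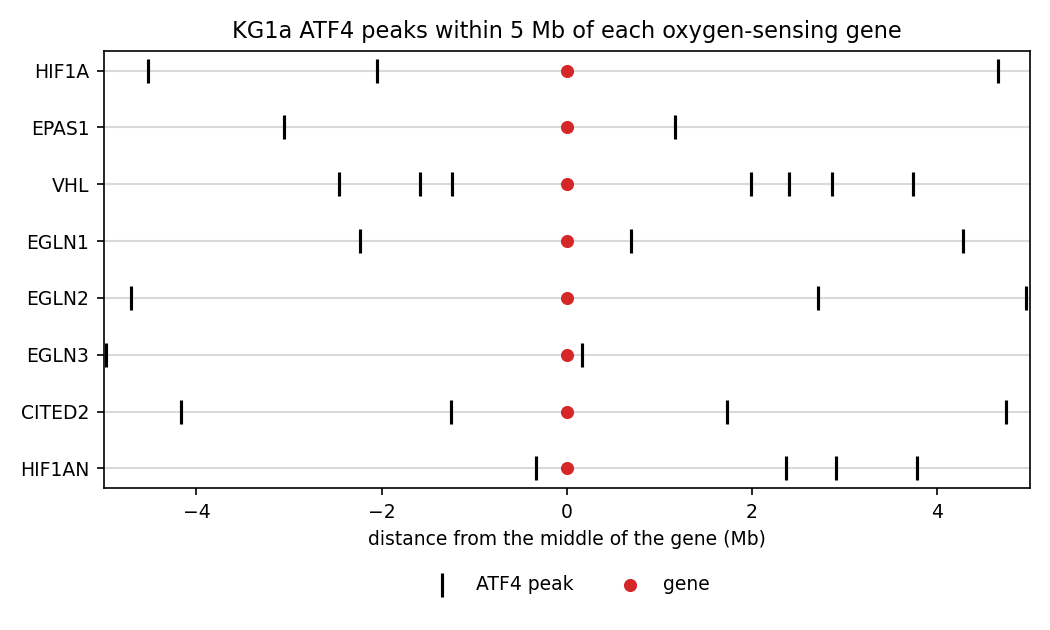
KG1a ATF4 peaks (black ticks) within 5 Mb on either side of the middle of each oxygen-sensing gene (red points), with the distance in Mb on the horizontal axis and 1 gene per row. No tick touches a gene, the nearest is 156 kb from EGLN3, and HIF1A stands in an empty stretch of 6.71 Mb.

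VHL and CITED2 lay close to the median of the group. VHL (chr3:10141778-10153667) was 1.24 Mb from a peak inside RAD18, a DNA repair ubiquitin ligase gene, at chr3:8904437-8904747. CITED2 (chr6:139371807-139374648) was 1.25 Mb from a peak at chr6:138123686-138124026, which is 16.3 kb from PERP, a cell adhesion and cell death gene. For both genes about as many protein-coding genes were nearer to a peak, 58.0% for VHL and 58.3% for CITED2.

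From near to far the order was EGLN3, HIF1AN, EGLN1, EPAS1, VHL, CITED2, HIF1A and EGLN2. EPAS1, VHL and CITED2 lay between 1.13 and 1.25 Mb, and no precision was at hand to judge how firm their order is. The median distance was 1.18 Mb over the 8 members and 0.961 Mb over the 19974 genes with a peak on their chromosome, of which the middle 50% lay between 0.355 and 2.29 Mb. Within 1 Mb of the span, 3 of the 8 had a peak, against 51.2% of all protein-coding genes. Within 100 kb none had one and the peak bases summed to 0, against 9.93% of all protein-coding genes with a peak that near. At those shares 0.252 members would be expected within 10 kb and 0.795 within 100 kb, both fewer than 1, so counts of 0 cannot show a deficit.

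**Figure D2:**
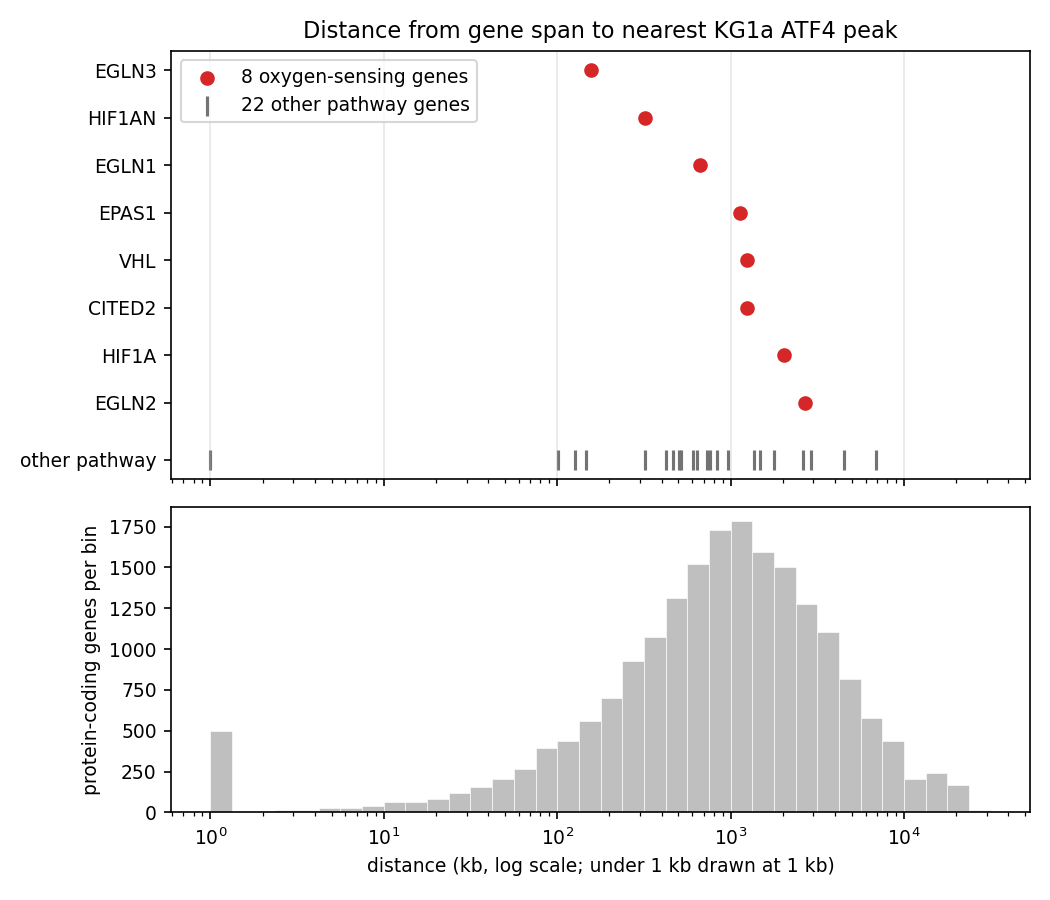
Distance in kb (log axis) from the gene span to the nearest KG1a ATF4 peak, for each of the 8 oxygen-sensing genes (red points) and 22 other pathway genes (grey ticks) above a histogram of all protein-coding genes with a peak on their chromosome. The 8 genes run from 156 kb (EGLN3, with 13.3% of genes nearer to a peak) to 2.70 Mb (EGLN2, with 78.8% nearer), while COMMD1 is drawn at the left edge because a peak overlaps it.

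The nearest peaks of the members had widths from 310 to 362 bp, around the list's median of 341 bp, and none was among the widest 25% of the list, which begins at 371 bp. When only those wide peaks were used, all 8 distances therefore had to grow. They then ran from 1.58 Mb for VHL to 28.9 Mb for CITED2, and the same distances over all genes were not computed. HIF1A then lay 4.63 Mb and EGLN3 8.20 Mb from a peak. In the deposited order the nearest peaks stood between places 152 and 857.

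The other genes of the pathway, 22 in all, were taken by role. A KG1a peak lay within 10 kb of 1 of them, against 0.694 expected at the 3.15% of all genes. This gene was COMMD1, whose product is known to limit the hypoxia-inducible factors as well as NF-kappa-B. Its peak, chr2:61888548-61888862, was 315 bp wide, in place 138 of the list. It begins 157 bp inside COMMD1 and also covers the start of CCT4, which runs in the opposite direction from its high-coordinate end. CCT4 encodes a subunit of the cytosolic chaperonin. The peak therefore cannot be given to either gene alone. With only the widest 25% of peaks, 0 of the 22 genes had one.

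The promoter window of the second annotated COMMD1 start (chr2:61888475-61888774, plus strand) is shown since it was the only one that a peak overlapped among the 11 windows of members and the 31 windows matched for 18 other pathway genes, with the bases under the peak in capitals.
COMMD1: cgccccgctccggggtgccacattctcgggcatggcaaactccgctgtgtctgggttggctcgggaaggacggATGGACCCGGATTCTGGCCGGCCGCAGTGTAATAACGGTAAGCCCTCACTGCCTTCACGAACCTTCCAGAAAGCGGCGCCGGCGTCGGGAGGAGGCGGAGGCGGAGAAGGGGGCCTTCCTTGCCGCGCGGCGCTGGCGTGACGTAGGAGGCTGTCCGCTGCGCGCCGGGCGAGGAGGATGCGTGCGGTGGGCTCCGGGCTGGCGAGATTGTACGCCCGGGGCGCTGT
The window held neither TGATGNAA nor TGACGTNA, and 3 matches to NCGTG.

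The nearest KG1a peaks of the partner and co-activator genes lay from 127 to 638 kb away. ARNT, which encodes the stable subunit, lay 127 kb from a peak inside GOLPH3L, and CREBBP, the gene of the co-activator CBP, lay 146 kb from one. Of all genes with a peak on their chromosome, 11.7% had a nearer one than ARNT and 12.8% a nearer one than CREBBP. EP300, the gene of p300, lay 605 kb away, HIF3A 507 kb and ARNT2 638 kb. USP20, which encodes a deubiquitinase that acts on HIF1A protein, was the nearest after COMMD1, at 101 kb from a peak of 587 bp inside FNBP1.

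The genes of the VHL ligase were farther apart. RBX1 lay 463 kb, ELOB 730 kb, CUL2 1.36 Mb and ELOC 2.89 Mb from a peak. RBX1 and EP300 had the same nearest peak, inside MRTFA, so their distances are not independent. The median over the 22 genes was 0.684 Mb, against 0.961 Mb over all genes with a peak on their chromosome. A peak lay within 1 Mb of 15 of the 22, against 51.2% of all protein-coding genes. OS9, which encodes a lectin of endoplasmic reticulum protein degradation, was the most remote, at 6.89 Mb.

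In mouse marrow the positions of Hif1a and Epas1 were known only to about 10 kb, as guides in GRCm38, and the other 6 orthologues were not analysed here. Hif1a was taken as chr12 from 73.91 to 73.95 Mb. Inside it lay 2 peaks. The first, chr12:73915330-73915783, was 454 bp wide, and 59.9% of the mouse list was wider. The second, chr12:73941089-73942326, was 1238 bp wide and among the broader peaks, with 18.3% of the list wider. A further peak of 400 bp at chr12:73961889-73962288 lay 11.9 kb beyond the high end, just outside the 10 kb flank. Given the rounding of the guide, that peak cannot be placed firmly inside or outside the region. Both peaks inside the span also lay within 10 kb of one of its ends, so they cannot be placed firmly inside the gene itself.

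The region of Hif1a with its flanks, 60 kb long, thus held 2 peaks and 1692 peak bases. Of the 42710 windows of that width tiled over the mouse chromosomes, 67.2% held at least 1 peak and 31.0% held more than 2. The median window had 1 peak and 728 peak bases, and 33.0% had more bases than the Hif1a region. Within 100 kb of the span there were 6 peaks, 1 of them cut by the limit, and 3111 bases, 1.30% of the sequence. The median window of 240 kb had 7 peaks and 5380 bases, and 69.2% of windows had more bases than the surroundings of Hif1a. From the first peak inside the span down to the next one on its low side, 404 bp wide, ran 104 kb without a peak. Of the 82854 gaps between mouse peaks, 7.17% were longer, and the median was 7.53 kb. The other gaps touching the guide span were 25.3 and 19.6 kb long, with 32.9 and 37.6% of gaps longer. A long gap is more likely to meet a given place than a short one, so these shares do not measure rarity.

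Epas1, taken as chr17 from 86.75 to 86.83 Mb, showed another arrangement. The guide span of 80 kb held 0 peaks, where 75.9% of windows of that width held at least 1. The nearest peak, chr17:86744783-86745859, was 1077 bp wide and ended 4.14 kb below the low end, within the rounding of the guide. It was the only one within 10 kb, so the region of 100 kb held 1 peak, against a median of 3 over 25623 windows, 81.8% of which held at least 1. From this peak to the next on the high side ran 105 kb without a peak, and 6.99% of mouse gaps were longer. That gap had to exceed the empty span of 80 kb, so its share adds nothing to the empty span.

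The flanks of Epas1 were rich in peaks. Within 100 kb of the span lay 19 peaks with 22687 bases, 8.10% of the sequence. The median window of 280 kb had 8 peaks and 6455 bases, 6.15% of windows had more peaks and 4.64% more bases. On the low side were 15 peaks, 320 to 3386 bp wide, between 4.14 and 89.0 kb from the span. On the high side were 4 peaks, the broadest of them, chr17:86851950-86856330, 4381 bp wide, so that 1.98% of the list was wider. Which genes these flanking peaks belong to was not analysed here.

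**Figure D3:**
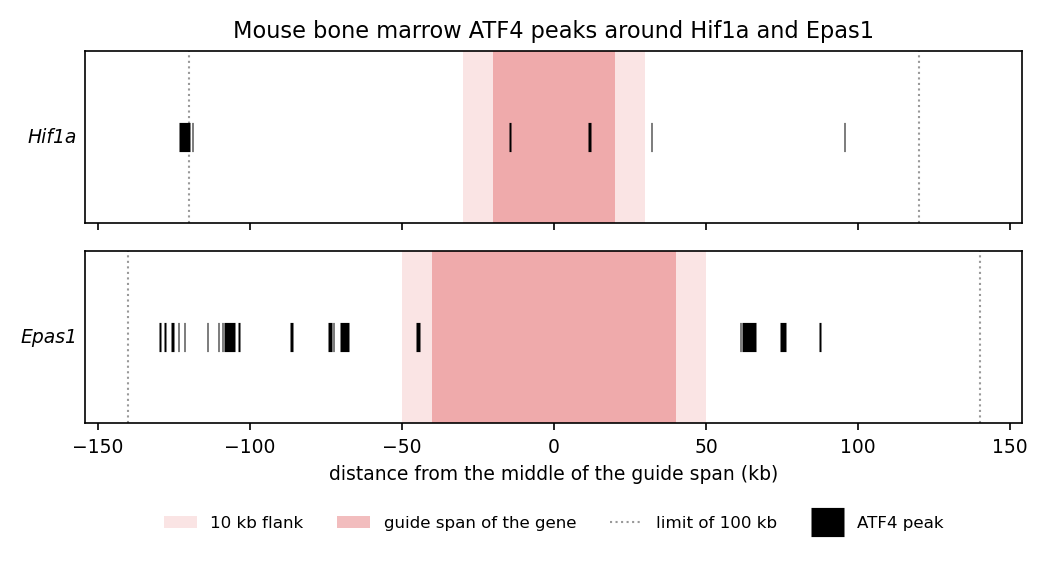
Mouse marrow ATF4 peaks (black bars, drawn to scale) around Hif1a (above) and Epas1 (below), by distance in kb from the middle of the guide span. Dark shading is the guide span, light shading the 10 kb flanks and dotted lines the limit of 100 kb. Hif1a holds 2 peaks in its span, and the Epas1 span is empty between a group of 15 peaks on the low side and 4 on the high side.

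Set side by side, Hif1a had 2 peaks inside the guide span and 4 others within 100 kb of it, and Epas1 had 0 inside and 19 within 100 kb. Which peaks count as inside could change for both genes within the rounding of the guides, and with 1 library no test of the difference was made. For the regions with 10 kb flanks, 54.0% of windows of the same width held fewer peaks than Hif1a, and 18.2% held fewer than Epas1.

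**Figure D4:**
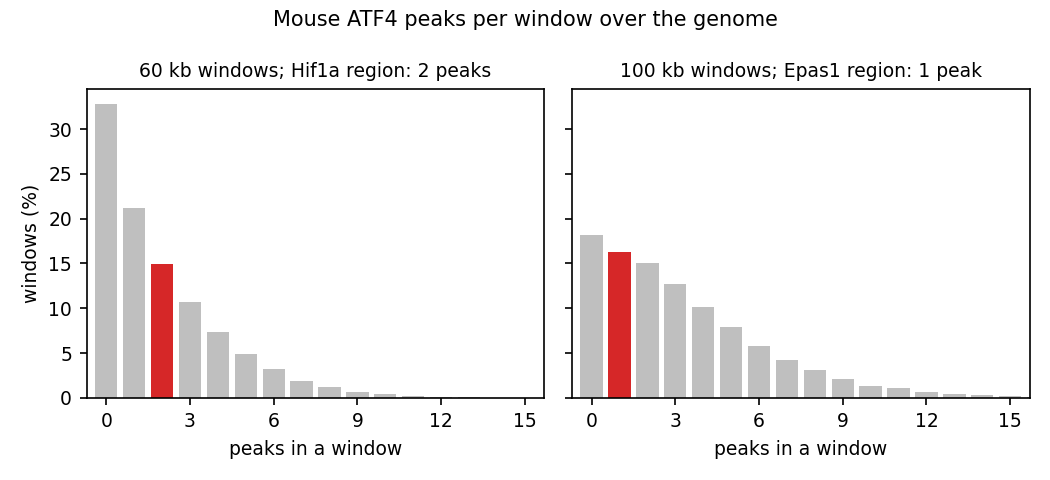
Share of tiled mouse windows (%) by the number of ATF4 peaks in them, for the widths of the Hif1a region (60 kb, left) and the Epas1 region (100 kb, right), with the red bar at the number of peaks in that gene's own region. The Hif1a region has 2 peaks where the median window has 1, and the Epas1 region has 1 where the median has 3. The windows were tiled without regard to genes, and those with over 15 peaks are not drawn.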

How the data were processed

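ATF4 ChIP libraries and inputs of KG1a cells and mouse marrow were sequenced with Illumina technology, as the labels' protocols state. The authors deposited 1 peak list per source with 3 columns (chromosome, start, end). The values are positions in bases, with no score. CASAVA 1.4, Bowtie2, MACS2 and deepTools, and the builds GRCh38 and GRCm38, are named in the submitters' processing notes. Settings, threshold, filters and depth are not given in the sources used here, so no precision can be given for a peak.

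Starts were read as counted from 0 and printed counted from 1. Python 3.11.15, numpy 2.4.6 and pandas 2.3.3 were used, with matplotlib 3.10.9 for figures. KG1a peaks were compared with RefSeq gene spans and promoters of GRCh38.p14, which shares chromosome coordinates with GRCh38. A peak counted for a gene when it overlapped the span plus 10 kb by at least 1 bp. Distances run from the span to the nearer peak edge. The mouse background is every non-overlapping window of the region's width between the first and last peak of each numbered chromosome and X. Unlike the KG1a background of protein-coding genes, these windows were not matched to genes. Motifs were exact matches on both strands. The code was tested on simulated data with planted peaks and motifs.

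The members and lists were chosen with earlier results of these data known, so no test was made. Genes named are all members, the other pathway genes with a peak or the nearest peaks, and the gene nearest to each member's nearest peak, of which 1 is not reported here. Other pathway genes were named by role after their values were seen. A planned comparison of protein sequences was not run. Labelled cell types were not checked against markers, which peak lists do not hold.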

Additional observations from a re-analysis of the deposited data

How the results depend on the processing

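No paired analysis was possible because no result comes from a test and each group holds 1 library. The count of 0 oxygen-sensing genes with a KG1a peak was also 0 with flanks of 50 and 100 kb. The narrower flanks, the peak centre in place of an overlap and the widest 25% of the list could not raise it, so they say nothing of its stability. With that widest 25%, the median distance of the members was 4.67 Mb in place of 1.18 Mb. A rise was fixed in advance, since no member's nearest peak was kept. The other pathway genes with a peak fell to 0 in place of 1, and Hif1a had 1 peak in its region and 1501 bases within 100 kb. Within 200 kb the KG1a members had 362 peak bases, all from the EGLN3 peak, and Hif1a had 13537. Epas1 had 0 peaks with no flank and 9 with 50 kb, and 14225 bases within 50 kb. Of 55 alternatives over 22 values, 39 stayed within 1.5 times the main value, those that could not change included. The windows of the same chromosome, the promoters of protein-coding genes and the narrower hypoxia core were chosen after seeing the data. The cause of these shifts was not tested beyond what the settings themselves remove or add. What limits all counts is the unknown depth and the single ChIP library per source.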
